A study of Homo sapiens with 5 samples.

Results

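The 48 genes described here repair DNA. They were chosen by symbol to cover mismatch repair (6 genes), homologous recombination (12 genes), the Fanconi anemia pathway (6 genes), damage signaling (5 genes), base excision repair (7 genes), nucleotide excision repair (6 genes), end joining (5 genes) and direct reversal (1 gene). All 48 were found among the 20026 genes with a value in the deposited data, MRE11A under its current symbol MRE11. RNA was sequenced from HCT116, a human colorectal carcinoma cell line, in 5 samples. The 2 control samples (pLKO_1 and pLKO_2) had been infected with lentivirus made from the pLKO.1 vector, and the 3 ELK4 knockdown samples (shELK4_1, shELK4_2 and shELK4_3) with lentivirus carrying an shRNA against ELK4, a different hairpin in each. Infected HCT116 cells had been selected with puromycin. ELK4 is a transcription factor of the ETS family, known as a partner of serum response factor. For colorectal cancer cells the authors report SP1 and SP3 as its partners instead. The labels do not say whether the samples of a group came from separate cultures, so the p-values below measure only the spread between these samples.

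Cells use different repair routes for different lesions. Mismatch repair removes bases mispaired during replication, base excision repair removes small damaged bases, and nucleotide excision repair cuts out bulky adducts such as those left by ultraviolet light. Broken chromosomes are rejoined either by copying the sister chromatid (homologous recombination) or by ligating the ends directly (end joining), and the Fanconi anemia proteins open crosslinks between the strands. HCT116 is known as a line without working mismatch repair. RNA levels do not measure repair itself, and the defect of the line was not tested here.

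The values are FPKM, read numbers scaled to the length of the transcript and to the mapped reads of the sample, so levels of different genes can be set side by side. FPKM values carry no read counts, and the absolute depth of each sample is therefore unknown. Their sums lay between 309139 and 319870 per sample. The 10780 genes that reached an FPKM of 1 in 2 or more samples were compared between the groups with limma on log2(FPKM + 1), and p-values were adjusted over all of them by the Benjamini-Hochberg method. Adding 1 before taking the logarithm shrinks the differences of weakly expressed genes. Of the 48 repair genes, 47 passed the FPKM limit and MSH3 did not.

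The hairpins target ELK4, whose FPKM was 8.62 in pLKO_1 and 7.60 in pLKO_2, against 3.14, 2.82 and 2.44 in shELK4_1, shELK4_2 and shELK4_3. All 3 hairpin samples lay below both controls. The knockdown mean of 2.80 ± 0.349 (SD, n = 3) was 34.5% of the control mean of 8.11 ± 0.724 (SD, n = 2). ELK4 fell by 1.26 on the log2 scale (standard error 0.12, adjusted p = 0.0290 from limma). It missed an adjusted p of 0.05 when pLKO_1 was left out (adjusted p = 0.452), when pLKO_2 was left out (adjusted p = 0.300), without shELK4_1 (adjusted p = 0.0748), without shELK4_3 (adjusted p = 0.0806) and with no FPKM limit (adjusted p = 0.114), all from limma. The log2 fold change stayed between −1.18 and −1.34 when a sample was left out.

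Before any comparison, the control level of the repair genes was taken as the mean of both pLKO.1 samples. It ran from 286 FPKM for XRCC6 to 0.620 FPKM for MSH3, with a median of 5.86 FPKM over the 47 tested genes. The median of all tested genes was 8.46 FPKM. At the top stood both subunits of the Ku ring that grips broken DNA ends, XRCC6 (286 FPKM) and XRCC5 (175 FPKM), followed by the abasic site nuclease APEX1 (111 FPKM), the strand break sensor PARP1 (72.5 FPKM), the uracil glycosylase UNG (43.9 FPKM) and PRKDC (37.6 FPKM), the kinase that Ku recruits. These 6 levels did not overlap one another in the controls. APEX1, XRCC5 and XRCC6 exceeded 96.2%, 97.8% and 98.7% of all tested genes. FANCI followed at 23.2 FPKM, ERCC3 at 22.5 FPKM and MSH6 at 14.8 FPKM. FANCI and ERCC3 overlapped in the controls, and so did MSH6 and FANCG, so these neighbors cannot be ordered.

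At the bottom of the order were MLH3 (1.70 FPKM), OGG1 (1.36 FPKM), MGMT (1.28 FPKM), FANCB (0.999 FPKM) and MSH3 (0.620 FPKM). OGG1 and MGMT overlapped, while MGMT, FANCB and MSH3 did not overlap one another. The pathways differed in their range. End joining spanned 4.995 to 286 FPKM and base excision 1.36 to 111 FPKM. Homologous recombination lay within 2.69 to 14.1 FPKM and damage signaling within 2.31 to 10.8 FPKM.

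**Figure D1:**
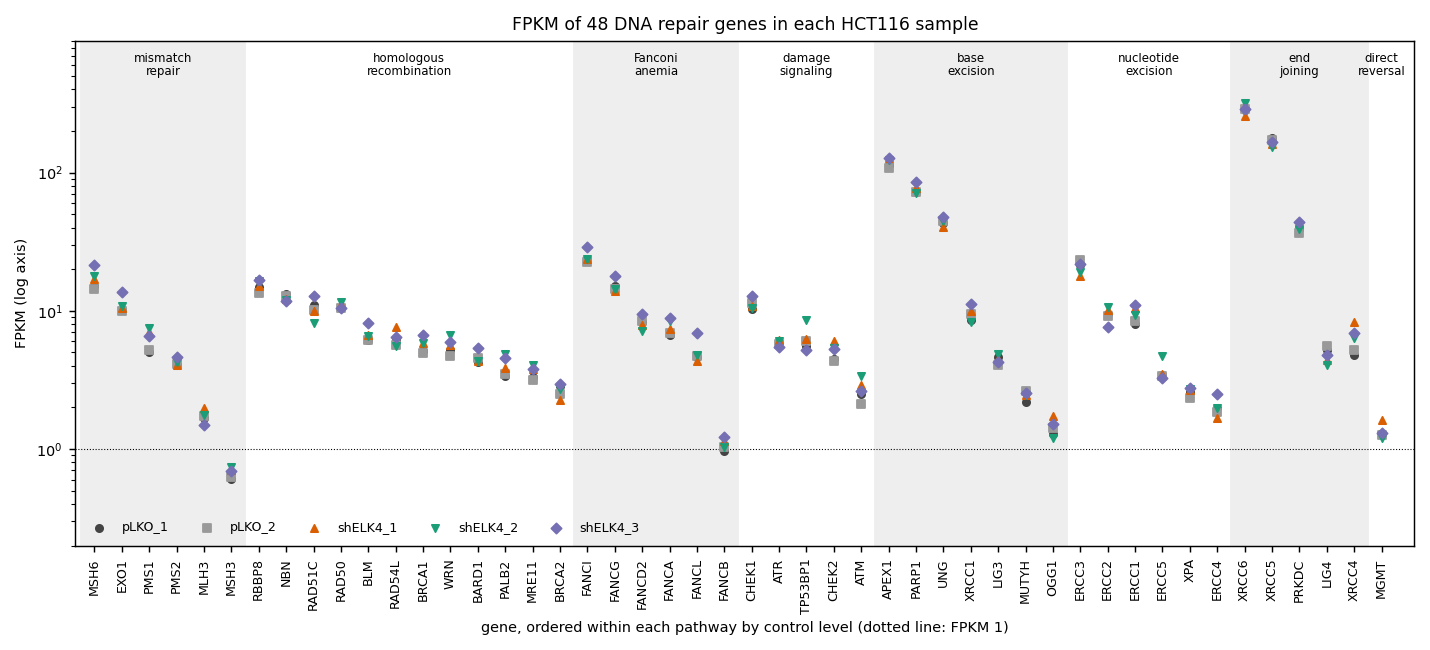
FPKM of the 48 repair genes in each sample (log axis), grouped by pathway and ordered within each pathway by the control level, 1 point per sample. XRCC6 (286 FPKM in the controls) and XRCC5 (175 FPKM) stand at the top, MSH3 (0.620 FPKM) lies below the dotted line at an FPKM of 1 in all 5 samples, and the points of a gene lie close together compared with the distances between genes.

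In the ELK4 knockdown none of the 47 tested repair genes passed an adjusted p of 0.05 in limma, where 0.167% of all tested genes did (18 of 10780). The lowest adjusted p among them was 0.138, for PMS1. At an unadjusted p under 0.05, 7 of 47 repair genes were higher in the knockdown (14.9%, against 8.08% of all tested genes) and 0 were lower (against 8.14%). The 7 genes were PMS1 and MSH6 of mismatch repair, BRCA1 and PALB2 of homologous recombination, the checkpoint kinase CHEK2, the excision nuclease subunit ERCC1 and the ligase partner XRCC4. The ligase LIG4 came closest among the lower genes, just outside that limit. Leaving out pLKO_1 or pLKO_2 left 1 control. Fewer genes then passed this limit, among the repair genes and among all tested genes. The median log2 fold change of the repair genes was 0.099 without pLKO_1 and 0.103 without pLKO_2. In bulk RNA, fewer cells of a type and less RNA per cell cannot be told apart.

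In 18 of 47 repair genes all 3 hairpin samples lay above both controls (38.3%, against 19.1% of all tested genes), and in 3 of 47 all lay below (6.38%, against 21.0%). The 3 lower genes were NBN, XRCC5 and LIG4. The log2 fold change was above 0 in 40 of the tested repair genes and below 0 in 7. Of all 10780 tested genes, 5195 were above 0 and 5585 below. Among the repair genes the log2 fold change ranged from −0.24 for LIG4 to 0.44 for XRCC4, with a median of 0.096. The median of all tested genes was −0.0086. Without each sample in turn the median of the repair genes lay between 0.0786 and 0.120. The sign itself was not fixed for small values. In 18 repair genes, each with a log2 fold change of at most 0.153 in size, it turned under at least 1 of 12 alternatives.

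**Figure D2:**
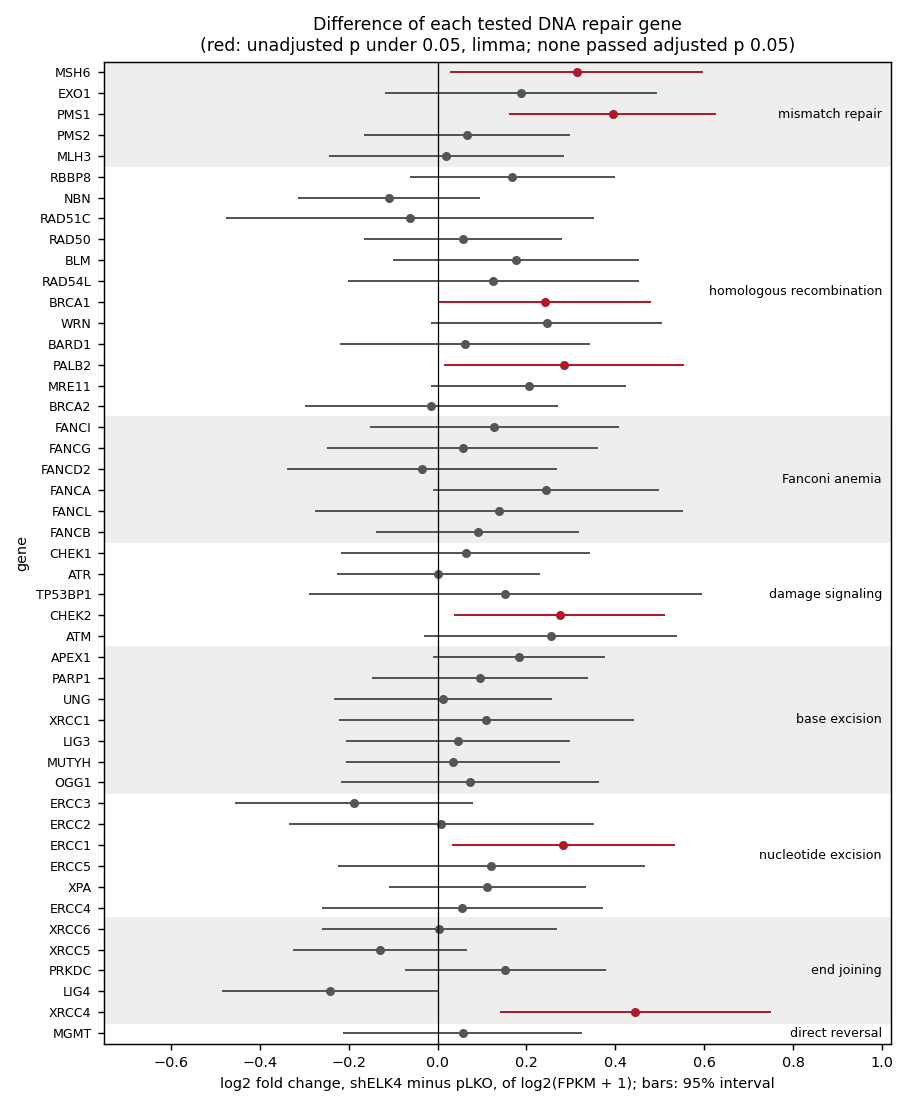
Log2 fold change of each of the 47 tested repair genes (shELK4 minus pLKO, on log2(FPKM + 1)) with its 95% interval from limma, grouped by pathway. The 7 genes in red have an unadjusted p under 0.05 and lie to the right of 0, and the lowest adjusted p of all is 0.138, for PMS1.

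In mismatch repair, all 5 tested genes had a log2 fold change above 0, with a median of 0.19. In 3 of them all hairpin samples lay above both controls (60.0%, against 19.1% of all tested genes). None of the 5 passed an adjusted p of 0.05. Without shELK4_3 the median was 0.087. PMS1 pairs with a partner of the MutL family. Its FPKM was 5.06 and 5.20 in the controls against 7.04, 7.54 and 6.59 in shELK4_1, shELK4_2 and shELK4_3, each hairpin sample standing above both controls. The knockdown mean of 7.06 ± 0.475 (SD, n = 3) was 37.7% higher than the control mean of 5.13 ± 0.0970 (SD, n = 2). The log2 fold change was 0.39 (95% interval 0.16 to 0.62, adjusted p = 0.138 from limma).

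MSH6 belongs to the complex that recognizes single mismatches, and had the highest control level of the pathway. Its FPKM was 15.2 and 14.5 in the controls and 17.001, 17.8 and 21.4 in shELK4_1, shELK4_2 and shELK4_3. shELK4_3 stood furthest from the controls. The mean was 26.4% higher in the knockdown, a log2 fold change of 0.31 (95% interval 0.03 to 0.60, adjusted p = 0.271 from limma). MSH3, which takes the place of MSH6 for longer loops, had the lowest level of all 48 genes, with 0.609 and 0.630 FPKM in the controls against 0.710, 0.738 and 0.695 FPKM in the hairpin samples. These groups did not overlap. In the fit with no FPKM limit, the log2 fold change of MSH3 was 0.08 with a standard error of 0.039 (adjusted p = 0.429 in limma over 16223 genes). EXO1, the nuclease that removes the mismatched strand, was also higher in all 3 hairpin samples, with log2 fold change 0.19 (adjusted p = 0.493), which was 0.079 without shELK4_3. PMS2 and MLH3 overlapped between the groups, with log2 fold changes of 0.07 and 0.02.

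Homologous recombination held 12 genes, of which 9 had a log2 fold change above 0 and 3 below. The median was 0.15, and none passed an adjusted p of 0.05. In 6 genes all hairpin samples stood above both controls (50%, against 19.1% of all tested genes). In 1 gene all stood below (8.33%, against 21.0%). BRCA1 and PALB2 act together on resected DNA. BRCA1 had an FPKM of 5.14 and 4.92 in the controls and of 5.86, 5.89 and 6.69 in shELK4_1, shELK4_2 and shELK4_3. The knockdown mean of 6.14 ± 0.470 (SD, n = 3) was 22.1% higher than the control mean of 5.03 ± 0.153 (SD, n = 2), a log2 fold change of 0.24 (95% interval 0.01 to 0.48, adjusted p = 0.298 from limma). PALB2, which bridges BRCA1 and BRCA2, had 3.40 and 3.50 FPKM in the controls against 3.88, 4.89 and 4.54 FPKM in the hairpin samples. It was 28.6% higher on average, a log2 fold change of 0.28 (95% interval 0.02 to 0.55, adjusted p = 0.285 from limma).

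BRCA2, which PALB2 brings to the break, had the lowest control level of the pathway. Its values were 2.85 and 2.52 FPKM in the controls against 2.27, 2.74 and 2.96 FPKM in the knockdown, and the groups overlapped (log2 fold change −0.01, 95% interval −0.30 to 0.27). RBBP8, which starts end resection, had the highest control level. Its 14.8 and 13.5 FPKM in the controls stood below 15.1, 16.3 and 16.6 FPKM in the hairpin samples, a log2 fold change of 0.17 (adjusted p = 0.424). The 3 subunits of the MRE11 complex, which senses and trims broken ends, lay on different sides of the controls. MRE11 lay above the controls in all hairpin samples (log2 fold change 0.21, adjusted p = 0.326), NBN lay below them in all (log2 fold change −0.11, adjusted p = 0.550) and RAD50 overlapped (log2 fold change 0.06). NBN had 13.3 and 12.8 FPKM in the controls against 12.2, 12.0 and 11.9 FPKM in the hairpin samples, a narrow gap. The helicases BLM and WRN, which unwind recombination intermediates, were above both controls in every hairpin sample, with log2 fold changes of 0.18 (adjusted p = 0.476) and 0.25 (adjusted p = 0.326). BARD1, the partner of BRCA1, and the recombination factors RAD51C and RAD54L overlapped, with log2 fold changes of 0.06, −0.06 and 0.13.

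The Fanconi anemia genes had a median log2 fold change of 0.11 over 6 genes, 5 of them above 0, and none passed an adjusted p of 0.05 or an unadjusted p under 0.05. That median rested on shELK4_3, and without this sample it was 0.0027. FANCI, a part of the clamp that closes around a crosslink, was the highest in the controls, with 23.8 and 22.5 FPKM. It had 23.8 and 23.7 FPKM in shELK4_1 and shELK4_2 and 29.0 FPKM in shELK4_3, so only the last stood apart. Its clamp partner FANCD2 had 8.29 and 8.42 FPKM in the controls against 7.91, 7.15 and 9.49 FPKM in the hairpin samples, on both sides of the controls. FANCB, a subunit of the core complex, was the lowest, with 0.967 and 1.03 FPKM in the controls against 1.13, 1.04 and 1.21 FPKM in the knockdown. It did not overlap, yet the gap to shELK4_2 was small (log2 fold change 0.09, 95% interval −0.14 to 0.32). FANCA, another core subunit, was higher in every hairpin sample as well (log2 fold change 0.24, 95% interval −0.01 to 0.50, adjusted p = 0.322). FANCG and the ubiquitin ligase subunit FANCL overlapped, with log2 fold changes of 0.06 and 0.14.

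In damage signaling all 5 genes had a log2 fold change above 0, with a median of 0.15. None passed an adjusted p of 0.05. The median was 0.30 without shELK4_3. CHEK2 is the kinase that relays the signal of ATM. Its FPKM was 4.52 and 4.32 in the controls and 6.04, 5.36 and 5.30 in shELK4_1, shELK4_2 and shELK4_3, with no overlap. The mean was 25.9% higher in the knockdown, a log2 fold change of 0.27 (95% interval 0.04 to 0.51, adjusted p = 0.250 from limma). ATM, the kinase at chromosome breaks, was the lowest of the pathway, with 2.49 and 2.13 FPKM in the controls against 2.89, 3.36 and 2.62 FPKM in the hairpin samples. These values did not overlap either (log2 fold change 0.25, 95% interval −0.03 to 0.54, adjusted p = 0.344 from limma).

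In the branch that answers stalled replication forks, CHEK1 and ATR showed overlapping values. Of other genes of this branch, read in the further list below, some stood above both controls in every hairpin sample and others overlapped. CHEK1 is the effector kinase of this branch and was the highest of the pathway. It had 10.3 and 11.4 FPKM in the controls against 10.9, 10.4 and 12.9 FPKM in the knockdown. ATR, which activates CHEK1, had a log2 fold change of 0.00 with a 95% interval of −0.22 to 0.23. TP53BP1, which shields broken ends from resection, had the widest spread between hairpins of all the tested repair genes, 0.63 on the log2 scale. It stood at 5.58 and 6.05 FPKM in the controls against at 6.30, 8.60 and 5.20 FPKM in the hairpin samples, highest in shELK4_2 and below both controls in shELK4_3.

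Base excision repair had a median log2 fold change of 0.07 over 7 genes, each above 0, and none passed an unadjusted p under 0.05 or an adjusted p of 0.05. The median was 0.16 without shELK4_2, 0.12 without pLKO_2, 0.042 without pLKO_1 and 0.030 without shELK4_3. APEX1 was the only member of the pathway whose groups did not overlap. Its FPKM was 114 and 109 in the controls and 127, 124 and 129 in the hairpin samples, 13.6% higher on average (log2 fold change 0.18, 95% interval −0.01 to 0.37, adjusted p = 0.325 from limma). OGG1, the glycosylase for oxidized guanine, was the lowest of the pathway, with 1.29 and 1.43 FPKM in the controls against 1.74, 1.21 and 1.51 FPKM in the knockdown, on both sides of the controls. PARP1, the scaffold XRCC1 and the ligase LIG3, which act together at nicks, had log2 fold changes of 0.10, 0.11 and 0.05. The glycosylases UNG and MUTYH had log2 fold changes of 0.01 and 0.04. All 5 overlapped between the groups.

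Nucleotide excision repair had a median log2 fold change of 0.08 over 6 genes. The median was 0.13 without shELK4_1, 0.043 without pLKO_2 and 0.031 without shELK4_2, and 0.042 after quantile normalization. None of its genes passed an adjusted p of 0.05. ERCC1, which with ERCC4 forms the nuclease that cuts on the 5′ side of the lesion, had an FPKM of 8.03 and 8.40 in the controls and of 10.4, 9.26 and 11.02 in shELK4_1, shELK4_2 and shELK4_3. The groups did not overlap, and the mean was 24.6% higher in the knockdown (log2 fold change 0.28, 95% interval 0.03 to 0.53, adjusted p = 0.258 from limma). ERCC4 itself was the lowest of the pathway and overlapped, with 1.98 and 1.85 FPKM in the controls against 1.68, 1.97 and 2.48 FPKM in the hairpin samples.

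ERCC3, a helicase of the general transcription factor TFIIH, was the highest of the pathway, with 21.5 and 23.4 FPKM in the controls against 17.9, 19.2 and 21.9 FPKM in the hairpin samples. Only shELK4_3 lay between the controls, and the log2 fold change was −0.19 (95% interval −0.45 to 0.08, adjusted p = 0.436 from limma). ERCC2, the other helicase of TFIIH, had a log2 fold change of 0.01. XPA, which checks the opened lesion, was above both controls in all hairpin samples (log2 fold change 0.11, adjusted p = 0.582). The nuclease ERCC5 overlapped, with log2 fold change 0.12.

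The end joining genes went in both directions. Of the 5 genes, 2 lay above the controls without overlap (40%, against 19.1% of all tested genes) and 2 below (40%, against 21.0%). The median log2 fold change was 0.00. The median was −0.072 without shELK4_2, 0.086 without shELK4_1 and 0.092 after quantile normalization. None passed an adjusted p of 0.05. XRCC4 and LIG4 form the complex that seals the break, and they lay on opposite sides of the controls. XRCC4, with the lowest control mean of the pathway though overlapping LIG4 there, had an FPKM of 4.78 and 5.21 in the controls and of 8.34, 6.34 and 6.91 in shELK4_1, shELK4_2 and shELK4_3. The knockdown mean of 7.20 ± 1.03 (SD, n = 3) was 44.1% higher than the 4.995 ± 0.303 (SD, n = 2) of the controls, a log2 fold change of 0.44 (95% interval 0.14 to 0.75, adjusted p = 0.178 from limma). LIG4 had an FPKM of 5.18 and 5.61 in the controls and of 4.40, 4.07 and 4.76 in the knockdown. The knockdown mean of 4.41 ± 0.345 (SD, n = 3) was 18.2% lower than the 5.39 ± 0.304 (SD, n = 2) of the controls, a log2 fold change of −0.24 (95% interval −0.48 to 0.00, adjusted p = 0.308 from limma).

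XRCC5 and XRCC6, the Ku subunits, did not go together. XRCC5 had 177 and 172 FPKM in the controls against 160, 154 and 165 FPKM in the hairpin samples, all below the controls (log2 fold change −0.13, 95% interval −0.32 to 0.06, adjusted p = 0.459 from limma). XRCC6 had 285 and 288 FPKM in the controls against 256, 319 and 290 FPKM in the hairpin samples, on both sides. PRKDC was above both controls in each hairpin sample, with log2 fold change 0.15 (adjusted p = 0.449). MGMT, which lifts alkyl groups off guanine in direct reversal, stayed near the FPKM limit in every sample, with 1.29 and 1.26 FPKM in the controls against 1.62, 1.196 and 1.31 FPKM in the knockdown (log2 fold change 0.06, 95% interval −0.21 to 0.32).

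**Figure D3:**
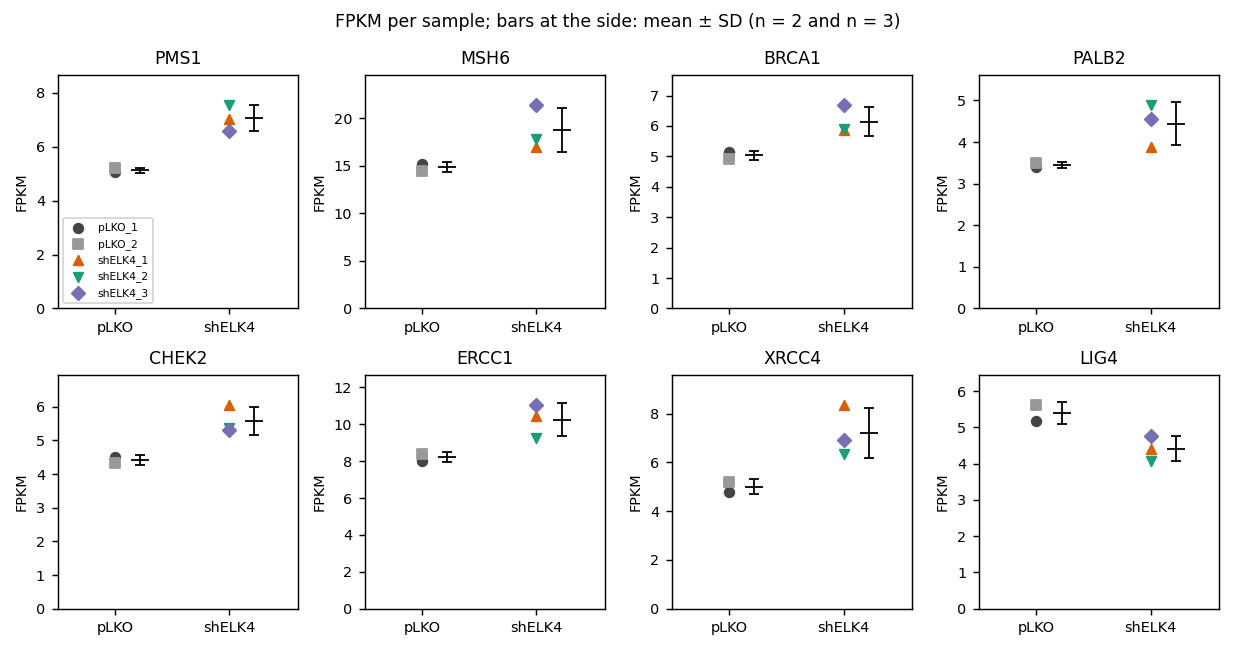
FPKM per sample of the 7 repair genes with an unadjusted p under 0.05 and of LIG4, with the mean ± SD of each group beside the points (n = 2 controls, n = 3 hairpin samples, axes from 0). In PMS1, MSH6, BRCA1, PALB2, CHEK2, ERCC1 and XRCC4 every hairpin sample lies above both controls, in LIG4 every hairpin sample lies below them, and none of the 8 passed an adjusted p of 0.05.

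On GRCh38 (GENCODE release 44), PMS1 lies at chr2:189784085-189877629 and MSH6 at chr2:47695530-47810063. BRCA1 lies at chr17:43044295-43170245, PALB2 at chr16:23603160-23641321, CHEK2 at chr22:28687743-28742422 and ERCC1 at chr19:45407334-45478828. XRCC4 lies at chr5:83077498-83353787 and LIG4 at chr13:108207439-108218368. The build and annotation behind the FPKM values are not given in the sources used here, and neither is whether the reads kept their strand. FPKM of genes with overlapping exons is therefore uncertain. More than 20% of exonic bases are shared with another gene in 9 members: RAD50 (76.9%), MUTYH (40.1%), ERCC5 (33.0%), LIG3 (30.5%), OGG1 (29.0%), TP53BP1 (28.8%), ERCC1 (28.6%, with POLR1G), XRCC1 (28.2%) and MSH6 (24.2%, with FBXO11). The other 5 of the 7 genes with an unadjusted p under 0.05 share at most 6.52% (CHEK2), XRCC4 none. Of 50-base stretches, RAD50 shares 73.0%, ERCC5 31.5%, MUTYH 25.8%, PMS2 16.4% and XRCC6 13.9% with other genes, pseudogenes of XRCC6 among them.

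ETS factors such as ELK4 bind around a GGAA core. The letters CCGGAAG (on either strand, so also CTTCCGG) were looked for in RefSeq promoter windows, 250 bases before to 50 bases after each start on GRCh38.p14, which were given for 43 of the 48 genes (not for NBN, WRN, PRKDC, FANCI and XRCC5). They occurred in 16 of 43 repair genes (37.2%), in 24.2% of tested genes with a window and in 12.2% of all genes with one. The GC box letters GGGCGG (or CCGCCC), which can share bases with the ETS letters, occurred in 81.4% of the repair genes, 79.8% of tested genes and 48.3% of all genes. The stretches of the 4 genes from the plot of single samples that hold the ETS letters are shown, 29 bases each, 5′ to 3′ on the strand of the gene, with the ETS letters in capitals.
XRCC4 (chr5:83077345-83077373, plus strand): gccacatcaccCTTCCGGggctcaggcgg
PALB2 (chr16:23641453-23641481, minus strand): gattccggctaCTTCCGGccgctcctcca
ERCC1 (chr19:45423902-45423930, minus strand): ggccagagaggCCGGAAGtgctgcgagcc
LIG4 (chr13:108218474-108218502, minus strand): ctgtggccccaCTTCCGGcccccgctcgg
LIG4, a second start (chr13:108215504-108215532, minus strand): tctggcgccagCTTCCGGcttagcggctg

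The ETS letters of XRCC4, PALB2 and LIG4 read CTTCCGG along the gene, and those of ERCC1 read CCGGAAG. XRCC4 and LIG4 both hold them, although XRCC4 was higher and LIG4 lower in every hairpin sample. PMS1, MSH6, BRCA1 and CHEK2 do not hold them in these windows. Among the tested repair genes, the 16 with the ETS letters had a median log2 fold change of 0.10, and the 26 without the letters 0.09. Of the 16 with the letters, 6 lay above and 1 below the controls without overlap. Of the 26 without the letters, 10 lay above and 0 below. Among all tested genes, 19.1% lay above and 21.0% below. A match of letters is a description of the sequence, and binding of ELK4 at these windows was not measured here. The authors mapped the binding of tagged ELK4 in HCT116 by ChIP-seq, and those data were not used here.

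The 3 hairpins differed among themselves. Counted over all 48 repair genes, the highest of the 5 values was in shELK4_3 for 24 genes, in shELK4_2 for 12, in shELK4_1 for 7, in pLKO_2 for 3 and in pLKO_1 for 2. Taken against the mean of the controls, the log2 values of the 47 tested repair genes had a median deviation of 0.089, 0.050 and 0.177 for shELK4_1, shELK4_2 and shELK4_3, with 0.011 and −0.011 for the controls themselves. The same medians over all tested genes lay between −0.0217 and 0.0122. Above the control mean were 33 repair genes in shELK4_1 (70.2%), 33 in shELK4_2 (70.2%) and 36 in shELK4_3 (76.6%). Of all tested genes, 48.1%, 46.8% and 52.1% were above it in these samples. Across the repair genes, the SD of the difference between both controls was 0.082. Between a control and a hairpin sample it was 0.176 to 0.203, and between a pair of hairpin samples it was 0.173 to 0.234. Hairpin samples thus lay about as far from one another as from the controls.

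**Figure D4:**
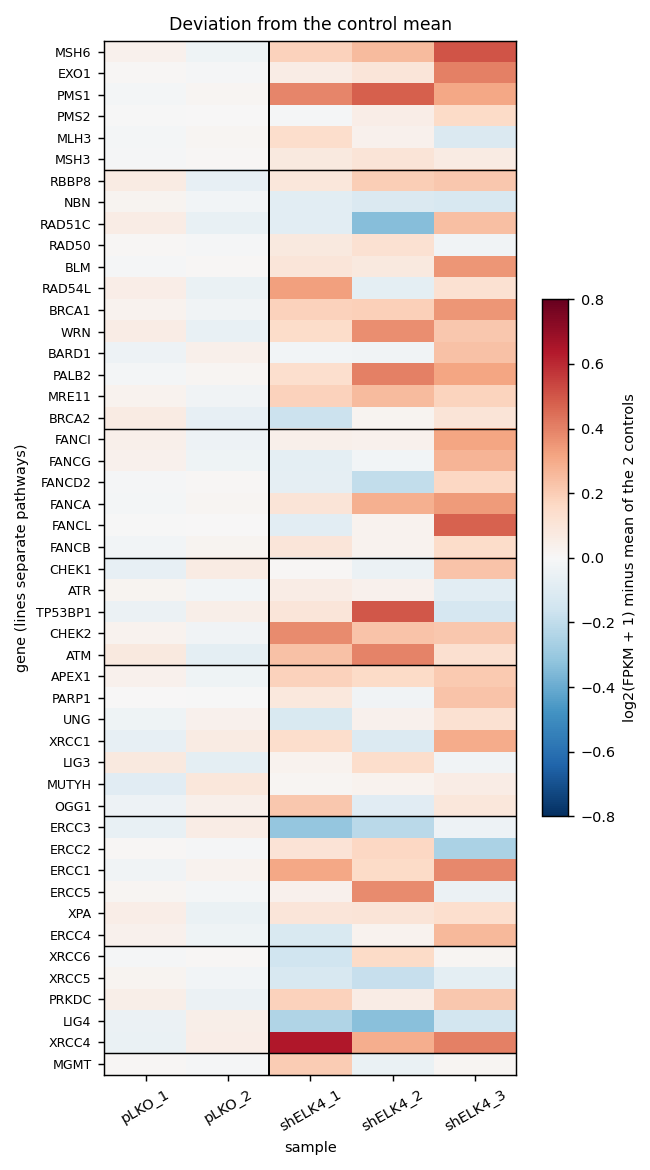
Deviation of each of the 48 repair genes from the mean of both controls in each sample, on log2(FPKM + 1), red for higher and blue for lower, with lines between pathways. XRCC4 in shELK4_1 and PMS1 in shELK4_2 are among the deepest red, FANCL is deep red in shELK4_3 alone, and LIG4, NBN and XRCC5 are blue in all 3 hairpin samples.

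RAD51C, a recombination factor, and TP53BP1 had the hairpin samples furthest apart. RAD51C had 11.1 and 10.2 FPKM in the controls against 9.98, 8.16 and 12.7 FPKM in shELK4_1, shELK4_2 and shELK4_3, a spread of 0.58 on the log2 scale. It was lowest in shELK4_2 and highest in shELK4_3, the reverse of TP53BP1. FANCL showed a comparable spread of 0.56, with 4.66 and 4.68 FPKM in the controls, 4.35 and 4.78 FPKM in shELK4_1 and shELK4_2, and 6.87 FPKM in shELK4_3. In contrast, XPA, NBN and MUTYH kept the hairpin samples within 0.032, 0.040 and 0.046 of one another on the log2 scale. FANCL, XPA, NBN and MUTYH were singled out after their values had been seen.

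A further 141 DNA repair genes were listed, and 137 could be tested. None passed an adjusted p of 0.05 in limma, 15 had an unadjusted p under 0.05 and were higher (10.9%, against 8.08% of all tested genes), and 3 were lower (2.19%, against 8.14%). The groups did not overlap in 43 genes above the controls (31.4%, against 19.1% of all tested genes) and 16 below (11.7%, against 21.0%), and the median log2 fold change was 0.07. The 19 nucleotide excision genes among them had a median of −0.06, with 3 above the controls without overlap (15.8%) and 5 below (26.3%). Direct reversal and the nucleotide pool had a median of −0.07, and the medians of the remaining lists lay above 0. The lowest adjusted p of the 137 genes was that of ABRAXAS1, which holds the BRCA1-A complex together. ABRAXAS1 had 4.70 and 5.04 FPKM in the controls against 7.85, 7.91 and 7.14 FPKM in the hairpin samples (log2 fold change 0.56, 95% interval 0.33 to 0.78, adjusted p = 0.0871 from limma). BABAM1, a subunit of the same complex, had 40.05 and 39.95 FPKM in the controls against 30.9, 36.1 and 31.7 FPKM in the knockdown (log2 fold change −0.28, adjusted p = 0.249).

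Further genes of single pathways with an unadjusted p under 0.05 are given with their log2 fold change. In homologous recombination RMI2 (0.42), a partner of BLM, and SFR1 (0.42) were higher. MSH5 (0.47), a meiotic relative of the mismatch binding proteins, and BRIP1 (0.35), the helicase that binds BRCA1, were also higher. In base excision the glycosylases NEIL3 (0.32) and NTHL1 (0.26) were higher. In damage signaling the histone gene H2AFX (0.43) and the clamp subunit RAD9A (0.38) were higher. In nucleotide excision DDB1 (−0.31), the adaptor of an ultraviolet damage sensor, was lower. Their adjusted p-values in limma lay above that of ABRAXAS1. The list beyond the 48 genes held no end joining gene with an unadjusted p under 0.05.

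A list of 30 replication and cell cycle genes was read beside the repair genes. None passed an adjusted p of 0.05 in limma. At an unadjusted p under 0.05, 2 were higher (6.67%, against 8.08% of all tested genes) and 0 were lower (against 8.14%). The 2 were GINS3 (log2 fold change 0.47, adjusted p = 0.0997 from limma) and POLD1 (log2 fold change 0.29, adjusted p = 0.198). The groups did not overlap in 9 genes above the controls (30%, against 19.1% of all tested genes) and 1 below (3.33%, against 21.0%). The log2 fold change was above 0 in 23 genes and below 0 in 7, with a median of 0.083. Against the control mean, the list had a median deviation of 0.09, −0.08 and 0.30 for shELK4_1, shELK4_2 and shELK4_3. The repair genes and this list were both highest in shELK4_3, and of the hairpin samples both were lowest in shELK4_2. The part of replication in the values of the repair genes was not tested.

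**Figure D5:**
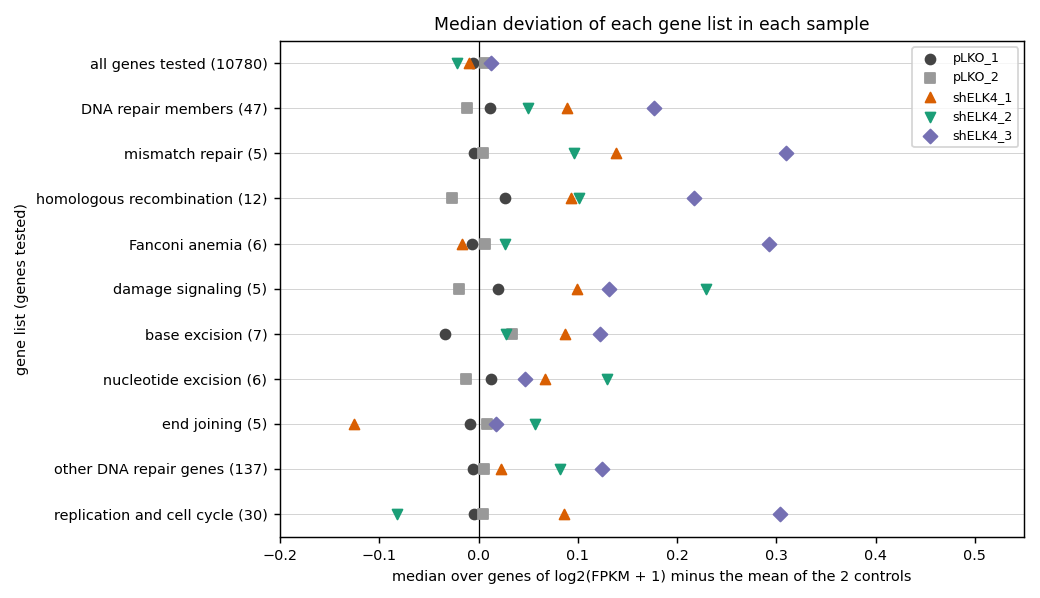
Median deviation of each gene list in each sample from the mean of both controls, on log2(FPKM + 1), with the number of tested genes in parentheses. The 47 repair genes lie at 0.089, 0.050 and 0.177 in shELK4_1, shELK4_2 and shELK4_3, all tested genes lie close to 0, and the replication and cell cycle list lies at 0.30 in shELK4_3 and at −0.08 in shELK4_2.

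Epithelial and foreign cell type markers were read in the same samples. Of 12 colorectal epithelial markers, 8 had an FPKM of at least 1 in every sample, 3 stayed under an FPKM of 1 in every sample (VIL1, LGALS4 and CDX1, the last listed at 0 throughout), and the summed FPKM was 2750 and 2797 in the controls and 2144, 1572 and 1678 in the hairpin samples. All 9 tested markers of this list had a log2 fold change below 0, and 5 were lower at an unadjusted p under 0.05 (55.6%, against 8.14% of all tested genes), KRT18, KRT8, KRT19, KRT20 and CDX2. The largest differences of these 5 were those of the keratin genes KRT18, KRT8 and KRT20, with log2 fold changes of −1.10, −0.66 and −0.52 (adjusted p of 0.117, 0.108 and 0.229 in limma). Of 15 markers of leukocytes, endothelium, fibroblasts and hepatocytes, 13 stayed under an FPKM of 1 in every sample, 2 of them at 0 throughout, and the list summed to between 9.74 and 18.1 FPKM. The exceptions were COL1A1 and CD68, and CD68 had 6.04 and 7.25 FPKM in the controls against 10.1, 14.1 and 5.23 FPKM in the hairpin samples. The part of these markers in the values of the repair genes was not tested.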

How the data were processed

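RNA of 5 HCT116 samples was measured by RNA-seq (poly(A) RNA, Illumina HiSeq). The authors deposited FPKM values per gene, calculated with Cufflinks and scaled to mapped reads. The submitters' processing notes name Trimmomatic 0.36, HISAT2 2.0.5, Cufflinks 2.2.1 and HTSeq 0.9.1, without their order. The genome build and annotation are not given in the sources used here. From the deposited FPKM values, 4 entries with repeated names were dropped, which left 20026 genes. Whole reads could not be recovered from the low values, so no count test was run. Steps between low values put the depth of the samples at 0.895 to 1 of that of pLKO_1, and the absolute depth is unknown. Precision therefore rests on the spread between samples, and no counting error is given.

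Genes that reached an FPKM of 1 in 2 or more samples were fitted with limma 3.58.1 in R 4.3.3 (log2(FPKM + 1), all 5 samples, knockdown against control with no covariate, a trended prior variance, Benjamini-Hochberg adjustment, 95% intervals). A gene was called at an adjusted p under 0.05. The fit was run on simulated data in which 200 genes were changed. All genes of a group had the same spread there, unlike the real genes. That run therefore does not show how well differences as small as those of the repair genes are found. Gene lists are described by counts and medians and were not tested. The members and lists were chosen with earlier results of these data known.

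Values per sample are given for ELK4, for members with an unadjusted p under 0.05, for the member with the highest and the lowest control level of each pathway, and for the 2 members with the widest spread between hairpins. Of the other lists, the named genes are those with the 3 largest log2 fold changes in each direction at an unadjusted p under 0.05. Values per sample of LIG4, XRCC5, NBN, FANCD2, FANCL, ABRAXAS1, BABAM1, RRM2B and CD68 and the genes of the translesion list go beyond that rule and were picked once their values were known. Exonic overlap and shared stretches come from GENCODE release 44 and promoter windows from RefSeq on GRCh38.p14. Sequence letters on chromosome 8 and some genes of the other repair lists are not reported here. Alternatives were leaving out each sample, the replicate number as a block, no FPKM limit, a pseudocount of 0.1 (also with no FPKM limit), quantile normalization, median-of-ratios scaling and a weight for each group. Tables were handled in Python 3.11.15 (pandas 2.3.3, numpy 2.4.6) and plots drawn with matplotlib 3.10.9.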

Additional observations from a re-analysis of the deposited data

How the results depend on the processing

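In none of the 12 alternatives did a repair gene pass an adjusted p of 0.05. The lowest adjusted p in limma lay between 0.0536 (PMS1, a weight for each group) and 0.909 (PMS1, without pLKO_2). Over all tested genes, 18 calls became 0 with no FPKM limit, 0 with a pseudocount of 0.1 and no FPKM limit, 413 with a weight for each group, and 0 to 95 when a sample was left out (95 without shELK4_2). The weight for each group also gave 3 calls among the other repair genes and 1 in the replication list. At an unadjusted p under 0.05, 7 repair genes and 1749 of all tested genes passed in the main fit. With the replicate block these numbers were 3 and 1762, and with a weight for each group 11 and 2499. The repair genes numbered 7, 8 and 7 without shELK4_1, shELK4_2 and shELK4_3. Leaving out a control left 1 sample in that group, and fewer repair genes and fewer of all tested genes passed. The other repair genes became 11 with the block and 4 to 30 without each sample in turn, the replication list 5 after quantile normalization, 5 with a weight for each group and 1 to 8 without each sample in turn, and all tested genes 588 to 2445. ELK4 missed an adjusted p of 0.05 with no FPKM limit (log2 fold change −1.26), also when this was joined with a pseudocount of 0.1 (−1.51). With a pseudocount of 0.1 and the FPKM limit kept, ELK4 passed (adjusted p = 0.0390 from limma). Its log2 fold change lay between −1.34 and −1.18 without each sample in turn. Both groups share the replicate numbers 1 and 2, but only as numbers. Deviations correlated at 0.0776 between pLKO_1 and shELK4_1 and at 0.0225 between pLKO_2 and shELK4_2. With the replicate number as a block, the log2 fold change turned in BARD1 (−0.024), CHEK1 (−0.0196), ERCC4 (−0.045), FANCG (−0.0505), FANCL (−0.0292), UNG (−0.0423) and XRCC6 (−0.00316). No control carries the number 3, so this fit takes its log2 fold changes from the samples numbered 1 and 2, and they equal those without shELK4_3. Quantile normalization turned ATR (−0.0246) and MLH3 (−0.0253). Without each sample in turn the ranges crossed 0 in MLH3 (−0.0401 to 0.0875), BRCA2 (−0.0783 to 0.0641), BARD1 (−0.0241 to 0.106), RAD51C (−0.212 to 0.0793), FANCD2 (−0.135 to 0.0469), FANCG (−0.0505 to 0.123), FANCL (−0.0292 to 0.250), ATR (−0.0266 to 0.0459), CHEK1 (−0.0196 to 0.128), TP53BP1 (−0.0181 to 0.297), MUTYH (−0.0545 to 0.126), UNG (−0.0423 to 0.0785), LIG3 (−0.0299 to 0.122), ERCC2 (−0.0715 to 0.138), ERCC4 (−0.045 to 0.144), ERCC5 (−0.00734 to 0.206), XRCC6 (−0.0718 to 0.0859) and MGMT (−0.0174 to 0.111). These were 37 values, and 527 other values of repair genes kept their sign and their side of the threshold. The causes were not tested.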

Other observations

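Translesion synthesis, in which specialized polymerases copy past damaged bases, is not among the 48 genes. Of its 12 listed genes, all tested, none had an unadjusted p under 0.05 in limma, 4 stood above both controls in every hairpin sample (33.3%, against 19.1% of all tested genes) and 3 below (25.0%, against 21.0%). The polymerase genes POLI, POLK and REV1 and the fork remodeler HLTF stood above, with log2 fold changes of 0.20, 0.21, 0.19 and 0.18. REV3L, the catalytic subunit of the polymerase that extends from lesions, and the ubiquitin conjugating enzymes UBE2A and UBE2B stood below, each with a log2 fold change of −0.16. POLK had 1.55 and 1.59 FPKM in the controls against 2.04, 1.99 and 1.87 FPKM in shELK4_1, shELK4_2 and shELK4_3. REV3L had 3.41 and 3.30 FPKM in the controls against 3.21, 2.58 and 2.95 FPKM in the hairpin samples. The adjusted p was 0.326 for POLK and 0.493 for REV3L.

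RRM2B, the ribonucleotide reductase subunit that supplies nucleotides for repair outside replication, had 39.2 and 38.2 FPKM in the controls against 30.5, 32.7 and 32.9 FPKM in the hairpin samples. Its log2 fold change was −0.27 (95% interval −0.47 to −0.06, adjusted p = 0.214 from limma). The other 4 genes of its list, ALKBH2, ALKBH3, NUDT1 and DUT, overlapped between the groups.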
